A study of Mus musculus with 24 samples.

Results

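Wild-type (WT) bone marrow-derived macrophages (BMDMs) that had already spent 24 h in lipopolysaccharide (LPS) were exposed to LPS again, and their transcripts were compared with those of cultures that had received only the first exposure. The comparison used 6 of the 24 RNA-seq libraries of the study, chosen by their labels as genotype WT with treatment 24h_LPS/3h_LPS (3 cultures) or 24h_LPS (3 cultures). The macrophages were grown from marrow of C57BL/6N mice aged 8-20 weeks for 7 days in medium with 10% serum and 20 ng/mL M-CSF, and LPS was used at 100 ng/ml throughout. The 24h_LPS cultures were harvested directly after 24 h of LPS, whereas the 24h_LPS/3h_LPS cultures were then given new medium, rested for 1 h and received LPS for a further 3 h. The effects of the second LPS, of the new medium and of the added hours therefore cannot be told apart. WT cultures left unstimulated (Unstim) or given LPS once for 3 h (3 libraries each) gave the first LPS response. The latter are labelled Mock/3h_LPS and had new medium and a 1 h rest before LPS, which are not recorded for the unstimulated cultures. In the first response, too, LPS and these steps cannot be told apart. Irg1-/- cultures of the treatments 24h_LPS/3h_LPS and 24h_LPS (3 libraries each), which lack the enzyme that makes itaconate, gave the response of the other genotype. The question was which pathways and gene classes still answered LPS in macrophages tolerized by a long first exposure.

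LPS is sensed by Toll-like receptor 4 with its co-receptors CD14 and MD-2, and the signal divides into a MyD88 branch, which activates NF-kappaB and MAP kinases, and a TRIF branch, which activates IRF3 and type I interferon. In endotoxin tolerance, macrophages that have seen LPS answer a later dose with lower induction of many inflammatory genes, while other genes remain inducible. Several NF-kappaB targets encode inhibitors of the pathway itself, among them IkappaB-alpha and the ubiquitin editor A20.

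The cells carried macrophage transcripts in every library. The summed level of 7 macrophage markers was 3242-7899 normalized CPM (read counts scaled to the size of the library) in the 24h_LPS libraries. After restimulation it was 5378-7644. No marker of the 7 cell type lists that entered the test passed it between the groups. The count filter let in no mast cell marker, 1 T cell marker and 2 B cell markers, so the test says little on these types. The 5 mast cell markers had no count in the 6 libraries, 5 markers of B cells summed to at most 0.975 CPM and the 5 T cell markers in the table to at most 5.17 CPM. Fibroblast markers summed to 182-246 CPM before and 135-175 CPM after restimulation, neutrophil markers to 75.6-232 and 70.8-148 CPM and dendritic cell markers to 2.56-3.04 and 1.73-4.39 CPM. Their part in the results was not tested. In such bulk samples fewer cells of a type and less RNA per cell cannot be told apart.

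Between 7361671 and 13805923 reads per library lay on genes. The 24h_LPS library of culture 3 stood apart from the other 5, with 33.7% of its reads outside annotated genes against 22.1-28.5%, and 0.709% mitochondrial reads against 1.72-2.50%. It separated from the rest along the first principal component of the 6 libraries, and the restimulated library of the same culture along the second. Culture 1, culture 2 and culture 3 carried the same column-name prefixes in both groups, so that each culture number also gave a difference within a prefix.

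After restimulation, 292 genes were higher and 182 were lower than after 24 h of LPS, of 11878 genes tested (2.46% and 1.53%, together 474 genes or 3.99%, edgeR's quasi-likelihood test, Benjamini-Hochberg adjusted p under 0.05). The median log2 fold change over all tested genes was -0.03. The 3 restimulated libraries lay wholly above or below the 3 24h_LPS libraries for 435 of the called genes. Over all tested genes the groups failed to overlap for 935 genes (7.87%) that were higher and 1081 (9.10%) that were lower after restimulation. All 3 differences within a prefix had the sign of the call for 285 of the 292 higher and for 172 of the 182 lower genes.

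Calls depended on single libraries in both directions, and 116 of the 292 higher and 41 of the 182 lower calls were kept in all 6 fits that left out a library. With each of the 6 libraries left out in turn, 144 to 272 genes were higher (fewest without the 24h_LPS library of culture 2) and 58 to 254 were lower. The lower calls numbered 58 without the 24h_LPS library of culture 3, 116 and 111 without the restimulated library of culture 1 or 2, and 39 without culture 3 of both groups, an alternative chosen after the data were seen, under which 142 genes were higher. Of the 182 lower genes, 136 (74.7%) had their highest 24h_LPS value in culture 3, against 37.6% of all tested genes. Of the 292 higher genes, 149 (51.0%) had their highest restimulated value in culture 3, against 35.3%. When only the 6 libraries entered the fit, 99 genes were higher and 47 lower.

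**Figure D1:**
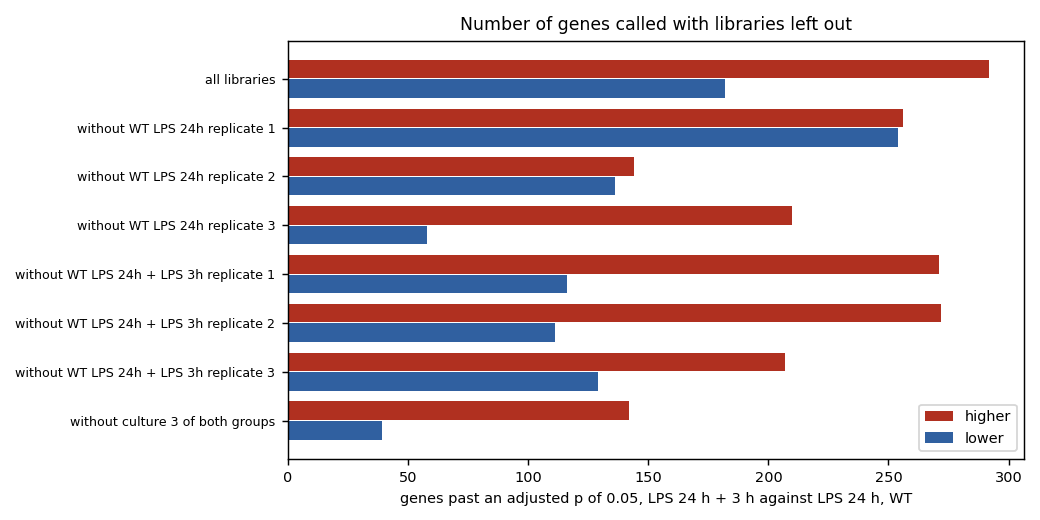
Number of genes past an adjusted p of 0.05 (x axis, genes) in the comparison of 24h_LPS/3h_LPS with 24h_LPS in WT macrophages, with all libraries and with libraries left out (y axis); red bars are genes higher and blue bars genes lower after restimulation. The lower calls drop from 182 to 58 without the 24h_LPS library of culture 3, and the higher calls range from 144 to 272 when 1 library is left out.

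The NF-kappaB family was the list with the highest share of members that rose (45.5%, against 2.46% of all tested genes). Of its 11 genes, which encode the DNA-binding subunits and the IkappaB proteins that hold them in check, 5 rose and none fell, with a list median of 1.12 on the log2 scale, and all 11 had risen on the first LPS (median 3.61). Nfkbia, which encodes IkappaB-alpha, stood at 1349.7, 1534 and 2095 normalized CPM in the 24h_LPS cultures 1 to 3 and at 4332, 5083 and 7051 after restimulation (log2 fold change 1.73 ± 0.27 SE, adjusted p = 0.000131). Nfkb2, the gene of the p100 subunit of the non-canonical pathway, rose from 75.1, 49.4 and 22.6 to 195, 173 and 192 CPM (1.93 ± 0.34, adjusted p = 0.000476). Neither gene had a restimulated library as low as its highest 24h_LPS library. Nfkb1, the gene of p105 and p50, rose by 1.54 ± 0.27 (adjusted p = 0.000383) and Nfkbiz, a nuclear IkappaB that promotes secondary response genes, by 1.42 ± 0.36 (adjusted p = 0.0192), although Nfkbiz was no longer called without the 24h_LPS library of culture 1 or 3. Rel was the other member called. Without culture 3 of both groups, 4 of the 5 calls were kept.

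The promoters of these genes are shown with matches to the kappaB consensus, the motif that NF-kappaB binds, because the family answered the second LPS. The windows run from 250 bases before to 50 bases after a RefSeq transcript start in GRCm38.p6. Nfkbia (chr12:55492598-55492897, minus strand) held 1 match and the most upstream of the 3 windows of Nfkb2 (chr19:46304487-46304786, plus strand) held 3, of which 2 overlap; capitals mark them.
Nfkbia: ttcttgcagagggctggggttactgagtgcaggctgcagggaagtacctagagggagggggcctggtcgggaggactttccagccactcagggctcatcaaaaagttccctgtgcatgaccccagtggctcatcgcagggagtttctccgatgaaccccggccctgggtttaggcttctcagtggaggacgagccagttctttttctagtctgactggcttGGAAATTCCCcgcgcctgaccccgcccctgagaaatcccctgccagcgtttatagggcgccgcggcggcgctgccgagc
Nfkb2: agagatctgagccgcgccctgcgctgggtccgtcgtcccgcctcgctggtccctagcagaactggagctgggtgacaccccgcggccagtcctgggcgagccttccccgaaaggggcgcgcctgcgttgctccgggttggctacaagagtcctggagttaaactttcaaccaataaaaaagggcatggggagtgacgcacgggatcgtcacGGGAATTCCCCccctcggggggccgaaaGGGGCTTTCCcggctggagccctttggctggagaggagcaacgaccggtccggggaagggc
On both strands, the kappaB consensus was found in 15.4% of 306 promoter windows of genes called higher, in 9.13% of 208 windows of genes called lower, in 10.4% of 11945 windows of tested genes and in 8.46% of all 32851 windows. The AP-1 site TGANTCA was found in 8.82%, 4.33%, 5.24% and 7.81% of the same windows. The interferon-stimulated response element was found in 3.27%, 4.81%, 3.36% and 3.44%, and the CArG box of immediate early genes in 1.96%, 0.962%, 1.31% and 1.63%. These shares are a description, without a test, and 238 of the 292 higher genes and 146 of the 182 lower genes had a window.

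The list of brakes on Toll-like receptor signalling answered in part. Whether each member acts as a brake in these cells was not tested. Of 19 genes listed as brakes on the pathway and on cytokine mRNA, 3 rose and 1 fell (median 0.37), whereas 16 had risen on the first LPS (median 3.60). The shares were 15.8% higher and 5.26% lower, against 2.46% and 1.53% of all tested genes. Tnip1, the gene of an A20-binding protein, rose from 150.2-180.3 to 343-662 CPM (1.58 ± 0.30, adjusted p = 0.0011), Tnfaip3, which encodes A20, from 37.5-107 to 107-209.8 CPM (1.48 ± 0.41, adjusted p = 0.031) and Peli1, an E3 ubiquitin ligase gene, from 204-402 to 741-906 CPM (1.35 ± 0.27, adjusted p = 0.00217). The call of Tnfaip3 was lost in 4 of the 6 fits that left out a library, namely those without the 24h_LPS library of culture 1 or 2 or the restimulated library of culture 2 or 3. Zfp36l1, whose product binds AU-rich mRNA and promotes its decay, moved the other way. It had fallen on the first LPS as well (-2.36 ± 0.34, adjusted p = 1.42e-06). The difference between the responses of Zfp36l1 did not pass (-0.31 ± 0.46, adjusted p = 0.718). Its level was 214, 298 and 551 CPM before and 52.9, 62.2 and 50.9 CPM after restimulation, so that the groups lay far apart (-2.68 ± 0.34, adjusted p = 6.46e-06), and the call held in all 6 fits that left out a library.

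Among 10 MAP kinase phosphatases only Dusp4 passed the test (10% higher, against 2.46% of all tested genes). Dusp4, a nuclear phosphatase of MAP kinases, rose from 20.5, 14.1 and 16.5 to 111, 100.5 and 96.7 CPM (2.59 ± 0.34, adjusted p = 9.51e-06), whereas its mean after the first LPS was 21.1 ± 4.91 CPM (SD, n = 3). The restimulated mean, 103 ± 7.38 CPM, was 487% of it. Dusp1, the most abundant phosphatase of the list, was at 232, 258 and 222 CPM before and at 171, 284 and 153 CPM after restimulation, with overlapping groups (-0.23 ± 0.31, adjusted p = 0.799).

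Of 26 immediate early and AP-1 transcription factors, 3 rose and 1 fell (median 0.39), and 14 had risen on the first LPS. The shares were 11.5% higher and 3.85% lower, against 2.46% and 1.53% of all tested genes. Egr1, a zinc finger factor induced by MAP kinases, rose from 1.22, 1.70 and 1.62 to 15.2, 7.99 and 12.4 CPM (2.95 ± 0.44, adjusted p = 6.49e-05). Maff, a small Maf protein that pairs with NRF2 and other factors, rose from 5.72, 10.99 and 5.92 to 37.4, 39.2 and 23.3 CPM (2.13 ± 0.36, adjusted p = 0.000328). Klf4 rose by 1.09 ± 0.28 (adjusted p = 0.023), a call lost without the 24h_LPS library of culture 1 or the restimulated library of culture 3. Jund fell in the fit (-1.70 ± 0.47, adjusted p = 0.0342), but its groups overlapped and the value rested on the 24h_LPS library of culture 3, with 943 CPM against 123 and 213 in the others. Without culture 3 of both groups the log2 fold change of Jund was -0.18. Klf6, the most abundant factor that did not pass, stood at 1319-1869 CPM before and 1914-2317 CPM after restimulation (0.46 ± 0.28, adjusted p = 0.43).

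The middle of the 3 promoter windows of Maff (chr15:79347270-79347569, plus strand) is shown because it held the cyclic AMP response element TGACGTCA, which is bound by CREB and ATF factors; the capitals mark this match. The element was found in 2.94% of windows of higher genes, 0.962% of windows of lower genes, 3.00% of windows of tested genes and 1.79% of all windows.
Maff: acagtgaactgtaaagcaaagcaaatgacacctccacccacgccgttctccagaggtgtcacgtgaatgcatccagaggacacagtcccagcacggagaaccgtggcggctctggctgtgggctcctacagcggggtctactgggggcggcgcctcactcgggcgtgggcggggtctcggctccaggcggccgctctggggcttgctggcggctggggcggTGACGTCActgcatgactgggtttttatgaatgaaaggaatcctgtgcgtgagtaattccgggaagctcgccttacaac

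Cytokines and growth factors gave the largest number of calls. Of 32 genes on the list 30 were tested, of which 11 rose (36.7%, against 2.46% of all tested genes) and none fell. On the first LPS 26 had risen. The list median was 2.15 on the log2 scale, or 1.37 with the members that had at most 3 counts in every library of a group set at the bound that this floor allows. Tnf, the gene of tumor necrosis factor, was at 50.5, 41.1 and 35.1 CPM before and at 496, 520.0 and 234 CPM after restimulation (3.30 ± 0.37, adjusted p = 6.64e-07). Tnfsf15, a TNF family ligand also known as TL1A, rose from 9.62, 10.7 and 6.97 to 109.6, 98.0 and 183 CPM (3.84 ± 0.32, adjusted p = 3.69e-09). Every restimulated library lay above every 24h_LPS library for both genes.

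Il1b, which encodes pro-IL-1beta, rose from 524, 280.4 and 234 to 1738, 2110.3 and 1316 CPM (2.31 ± 0.31, adjusted p = 1.42e-05). Il6 rose from 2.92, 4.38 and 3.73 to 11.1, 21.4 and 59.8 CPM (3.06 ± 0.54, adjusted p = 0.000555) and was no longer called without culture 3 of both groups. Lif, a cytokine of the IL-6 family, reached only 2.08-4.87 CPM (3.17 ± 0.79, adjusted p = 0.0161), a call lost without culture 2 of either group. The remaining members that rose were Edn1, Il27, Il10, Il1a, Inhba and Hbegf, and Csf2 and Clcf1 were too low to be tested. Without culture 3 of both groups, 8 of the 11 calls were kept.

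Of 22 chemokines 6 rose (27.3%, against 2.46% of all tested genes) and none fell (median 0.35), and 19 had risen on the first LPS. Ccl4 and Ccl3, which attract monocytes and T cells, rose from 115-128 to 1232-2324 CPM (3.73 ± 0.34, adjusted p = 2.92e-08) and from 51.7-93.0 to 665-1293 CPM (3.61 ± 0.34, adjusted p = 4.44e-08). The neutrophil attractants Cxcl1 and Cxcl2 rose from 6.02-29.3 to 169-342 CPM (3.57 ± 0.47, adjusted p = 1.01e-05) and from 613-823 to 3412-4549 CPM (2.47 ± 0.31, adjusted p = 5.88e-06). Cxcl11 and Cxcl10 were the other members called. Ccl5 was at 6929.6, 4911 and 1153 CPM before and at 6251, 7362 and 2933 CPM after restimulation, with overlapping groups (0.35 ± 0.41, adjusted p = 0.757). Its mean after 24 h of LPS, 4331 ± 2932 CPM (SD, n = 3), was already as high as the 3380.1 ± 695 CPM of the first 3 h.

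**Figure D2:**
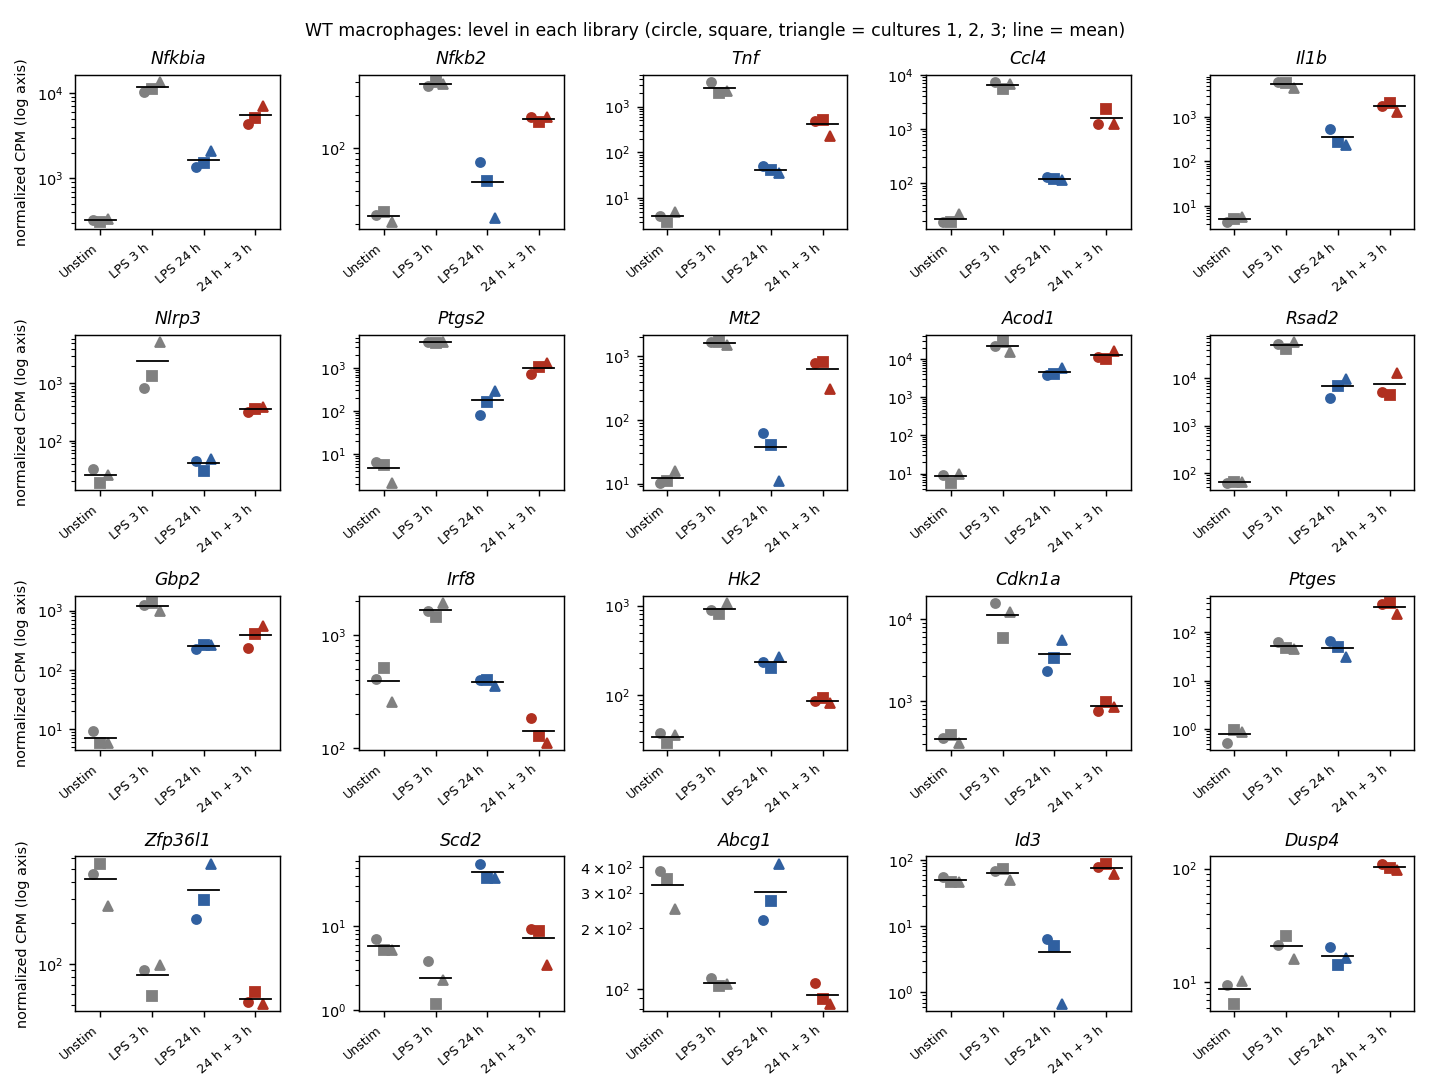
Normalized CPM (log axis, own range per panel) of 20 genes in the WT libraries left unstimulated, after 3 h of LPS, after 24 h of LPS (blue) and after 24 h plus a second 3 h (red); symbols are the 3 cultures of each group and lines their means. Tnf sits at 35.1-50.5 CPM before and 234-520.0 CPM after restimulation, whereas the groups of Rsad2 overlap at 3867-9752 and 4411-13132 CPM.

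Interferon targets stayed above the unstimulated level at 24 h, at a median 49.7% of the 3 h level, without a further rise in most members. All 34 type I interferon targets had risen on the first LPS (median 5.24), and all 34 were still above the unstimulated mean at 24 h, yet 2 rose and 3 fell on restimulation (median -0.12). The share that rose was 5.88%, against 2.46% of all tested genes, and the share that fell was 8.82%, against 1.53%. Ifi205, an interferon-inducible gene with close paralogs that may share its reads, rose from 68.5, 78.3 and 196 to 342, 273 and 815 CPM (2.06 ± 0.41, adjusted p = 0.00208). Oasl1, a translational inhibitor of Irf7, rose by 1.36 ± 0.34 (adjusted p = 0.0153), and its call was lost without the 24h_LPS library of culture 2 or 3. Stat2, a subunit of the interferon-activated factor ISGF3, was at 719, 1002 and 2253 CPM before and at 445, 452 and 343 CPM after restimulation (-1.68 ± 0.38, adjusted p = 0.00772). Ifit2 fell in the fit with groups that just overlapped (-1.72 ± 0.44, adjusted p = 0.0209), and Isg15 was the other member called lower. None of the 3 lower calls was kept without culture 3 of both groups. Rsad2, which encodes viperin, showed no separation, with 3867, 7046 and 9752 CPM against 5198, 4411 and 13132 CPM (0.14 ± 0.34, adjusted p = 0.904).

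Guanylate-binding proteins and immunity-related GTPases, which attack the vacuoles of intracellular microbes, gave no call among 14 tested members of 16. With 3.99% of all tested genes called, a list of this size would hold few calls in any case. On the first LPS 13 members had risen (median 6.06 against 0.23 on restimulation). Gbp2 stood at 224, 268 and 267 CPM before and 234, 399.5 and 541 CPM after restimulation (0.63 ± 0.31, adjusted p = 0.309). Of 10 interferon regulatory factors and interferon receptors only Irf8 passed (10% lower, against 1.53% of all tested genes). Irf8, a factor of the macrophage lineage, was at 402, 402 and 356 CPM before and at 186, 128 and 111 CPM after restimulation (-1.45 ± 0.30, adjusted p = 0.00312), whereas the first LPS had raised it (2.08 ± 0.30). MHC class I antigen processing had 11 of 14 members higher after the first LPS and none called on restimulation (median -0.24). This list, too, would hold few calls at the 3.99% of all tested genes.

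Some genes of Toll-like receptors and signalling adaptors also rose. Of 28 tested Toll-like receptors and signalling adaptors of 29, 4 rose (14.3%, against 2.46% of all tested genes) and none fell (median 0.29). Traf1, a TNF receptor adaptor, rose from 94.4-104 to 357-509.9 CPM (2.09 ± 0.35, adjusted p = 0.000246), Tlr2, the receptor of bacterial lipopeptides, from 10.0-28.7 to 42.5-88.1 CPM (1.78 ± 0.35, adjusted p = 0.0019) and the LPS co-receptor gene Cd14 from 76.9-196 to 299-659 CPM (1.63 ± 0.34, adjusted p = 0.00333). The kinase gene Irak2 rose less (0.94 ± 0.27, adjusted p = 0.038), a call kept in 2 of the 6 fits that left out a library.

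In the TNF receptor, death and survival list 4 of 26 members rose and 1 fell (median 0.38). The shares were 15.4% higher and 3.85% lower, against 2.46% and 1.53% of all tested genes. Phlda1 rose from 25.8, 39.1 and 42.9 to 123, 191 and 107 CPM (1.96 ± 0.29, adjusted p = 6.16e-05). Cflar, whose product c-FLIP blocks caspase-8, rose from 641-813 to 1347-1717 CPM (1.08 ± 0.27, adjusted p = 0.0189) and the kinase gene Plk2 from 37.4-50.9 to 80.2-131 CPM (1.28 ± 0.34, adjusted p = 0.0279), but the call of Plk2 was kept in only 1 of the 6 fits that left out a library and that of Cflar in 4. Gadd45b was the other member that rose. The receptor gene Tnfrsf14 was called lower with overlapping groups and 264 CPM in the 24h_LPS library of culture 3 against 38.6 and 98.8 in the others (-2.04 ± 0.51, adjusted p = 0.017). Without culture 3 of both groups, 1 of the 5 calls of this list was kept.

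Nlrp3, the sensor of the inflammasome that the study followed, was the only call among 16 inflammasome and pyroptosis components. It rose from 44.8, 29.0 and 47.6 to 317, 356 and 393 CPM (3.13 ± 0.44, adjusted p = 2.4e-05), a call kept in every fit that left out a library. Of this list 6.25% was called higher, against 2.46% of all tested genes, and its median was -0.09. Txnip, which encodes an NLRP3-binding protein, was at 217, 355 and 689.8 CPM before and at 176, 239.9 and 221 CPM after restimulation (-0.99 ± 0.32, adjusted p = 0.0764).

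Both inducible enzymes of prostaglandin E2 synthesis rose. Ptgs2, which encodes cyclooxygenase-2, rose from 81.2, 159.6 and 286 to 741, 1031 and 1284 CPM (2.54 ± 0.42, adjusted p = 0.000249) and Ptges, the inducible prostaglandin E synthase gene, from 65.0, 48.1 and 29.9 to 368, 394 and 227 CPM (2.79 ± 0.38, adjusted p = 1.41e-05). The restimulated mean of Ptges, 329.7 ± 89.7 CPM (SD, n = 3), was 646% of its mean after the first 3 h, whereas that of Ptgs2 was 26.2%. Ptger4, the gene of the prostaglandin E2 receptor EP4, fell from 13.1-22.2 to 3.96-7.11 CPM (-1.65 ± 0.37, adjusted p = 0.00753), a call lost without culture 3 of either group. The other 11 of 14 tested members did not pass. Of this list 14.3% was called higher and 7.14% lower, against 2.46% and 1.53% of all tested genes.

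Acod1 (Irg1), which makes itaconate, did not pass the test despite groups that did not overlap. Its level was 3794, 4015 and 5799 CPM after 24 h of LPS and 11389, 10381 and 16122 CPM after restimulation (1.48 ± 0.46, adjusted p = 0.0629), and it was called in 4 of 10 alternative settings and in none of the 6 fits that left out a library. Slc7a2 was the single call of 17 genes of nitric oxide, arginine and tetrahydrobiopterin metabolism (5.88% higher, against 2.46% of all tested genes). Slc7a2, an arginine transporter gene, rose from 129, 144 and 215 to 429.6, 449 and 1114 CPM (2.03 ± 0.52, adjusted p = 0.0208) and lost the call in 3 of the 6 fits that left out a library. Arg1 was at 2148-2641 CPM before and 1437-2176 CPM after restimulation (-0.30 ± 0.45, adjusted p = 0.83).

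Metallothioneins, small proteins that bind zinc and copper, were among the genes that rose most. Mt2 rose from 62.1, 39.7 and 10.9 to 780.4, 825 and 312 CPM (4.09 ± 0.46, adjusted p = 8.53e-07) and its neighbour Mt1 from 148, 115 and 59.7 to 1085, 1274 and 663 CPM (3.23 ± 0.36, adjusted p = 6.64e-07). Both calls held in every fit and alternative. Mt1 and Mt2 are alike in sequence, and how the counting treated shared reads is not given in the sources used here. The iron exporter gene Slc40a1 (ferroportin) fell from 45.3-62.8 to 18.9-31.8 CPM (-1.14 ± 0.28, adjusted p = 0.0143), a call kept in 2 of the 6 fits that left out a library. The other 10 of 13 tested genes of this list did not pass. Of the list 15.4% was called higher and 7.69% lower, against 2.46% and 1.53% of all tested genes.

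The promoter window of Mt2 (chr8:94172368-94172667, plus strand) is shown because it held 6 matches to TGCNCNC, on either strand and in capitals. This pattern is looser than the core of the metal response element, TGCRCNC (R is A or G). The marked stretches GGGAGCA and TGCTCTC match the pattern but not the core. This gene was chosen for display after its values were seen. At least 1 match to the looser pattern was found in 63.4% of windows of higher genes, 63.0% of windows of lower genes, 59.5% of windows of tested genes and 51.0% of all windows.
Mt2: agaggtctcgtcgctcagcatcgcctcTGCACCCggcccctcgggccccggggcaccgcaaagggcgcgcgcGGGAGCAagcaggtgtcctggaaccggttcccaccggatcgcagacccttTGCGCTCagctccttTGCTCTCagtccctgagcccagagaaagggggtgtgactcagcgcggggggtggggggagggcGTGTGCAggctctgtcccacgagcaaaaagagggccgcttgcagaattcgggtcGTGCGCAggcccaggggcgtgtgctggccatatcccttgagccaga

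NRF2 targets, which counter oxidants and electrophiles, gave 3 calls of 22, all higher (13.6%, against 2.46% of all tested genes, list median 0.13). The cystine transporter gene Slc7a11 rose from 122-205 to 324-439 CPM (1.35 ± 0.31, adjusted p = 0.00915), the thioredoxin reductase gene Txnrd1 from 138-249 to 374-561 CPM (1.19 ± 0.32, adjusted p = 0.0298) and the sulfiredoxin gene Srxn1 from 55.9-131 to 177-211 CPM (1.10 ± 0.30, adjusted p = 0.0314). The call of Slc7a11 was lost in 1 of the 6 fits that left out a library, that of Txnrd1 in 3 and that of Srxn1 in 4. Among scavenger and pattern recognition receptors 2 of 20 rose (10%, against 2.46% of all tested genes). Clec4e, the gene of the lectin Mincle, rose from 467, 317 and 152 to 1810.2, 1494 and 1377 CPM (2.32 ± 0.34, adjusted p = 4.8e-05) and Olr1, a scavenger receptor of oxidized lipoprotein, from 0.974, 0.715 and 6.02 to 21.3, 24.8 and 24.2 CPM (3.17 ± 0.60, adjusted p = 0.0012). Cd83 was the single call of 14 MHC class II and co-stimulation genes (1.42 ± 0.39, adjusted p = 0.0314), kept in 2 of the 6 fits that left out a library. That is 7.14% of the list called higher, against 2.46% of all tested genes. Icam1 of the same list was at 23.4-137 CPM before and 93.2-203 CPM after restimulation (0.99 ± 0.37, adjusted p = 0.148).

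**Figure D3:**
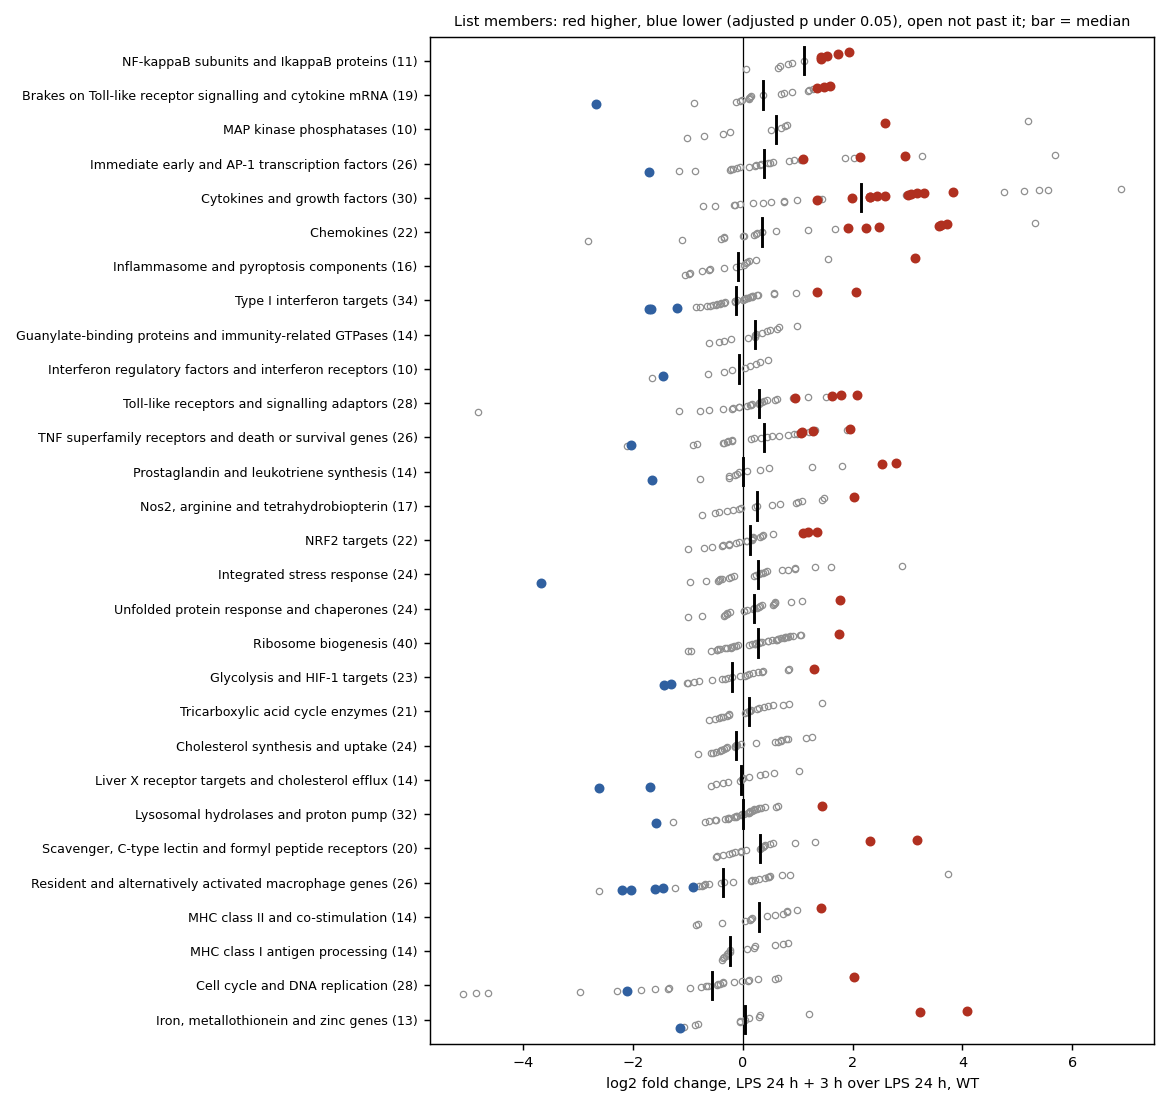
Log2 fold change of 24h_LPS/3h_LPS over 24h_LPS in WT macrophages (x axis) for the tested members of 29 gene lists (y axis, number tested in brackets); red points are members called higher, blue points members called lower, open points members that did not pass an adjusted p of 0.05, and bars are list medians. The cytokine list (median 2.15) and the NF-kappaB list (median 1.12) lie to the right, and the type I interferon targets (median -0.12) centre near 0.

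Some members of the list of resident and alternatively activated macrophage genes were called lower. Of 26 tested resident and alternatively activated macrophage genes of 29, none rose and 5 fell (19.2%, against 1.53% of all tested genes; median -0.36). Maf, a transcription factor gene, was at 926, 1263 and 1883 CPM before and at 627, 437 and 416 CPM afterwards (-1.46 ± 0.31, adjusted p = 0.00355), and the chemokine receptor gene Ccr2 went from 18.7-35.9 to 6.54-13.03 CPM (-1.59 ± 0.35, adjusted p = 0.00566). Both were no longer called without the 24h_LPS library of culture 3. Fcrls, a myeloid Fc receptor-like gene, was called lower (-2.04 ± 0.48, adjusted p = 0.00991) with 42.3 CPM in that library against 6.33 and 6.79 in the others, and not without it. Without culture 3 of both groups, 1 of the 5 calls was kept. The other 21 members did not pass. Among them the macrophage markers Adgre1 (0.29) and Csf1r (0.41) leaned higher, and Mertk (-0.80) and Fcgr1 (-0.62) lower.

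Lipid handling genes fell at 2 points. Scd2, a fatty acid desaturase gene, went from 56.0, 38.1 and 37.3 to 9.34, 8.67 and 3.47 CPM (-2.62 ± 0.49, adjusted p = 0.00103) and the cholesterol exporter gene Abcg1 from 219, 271 and 418 to 107, 89.6 and 84.4 CPM (-1.69 ± 0.27, adjusted p = 0.000153). These were the only calls among 14 liver X receptor targets (14.3% lower, against 1.53% of all tested genes, list median -0.03). Both were kept without culture 3 of both groups. No gene of cholesterol synthesis and uptake passed among 24 tested of 25 (median -0.13). At the 3.99% of all tested genes such a list would hold few calls in any case.

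Of 23 tested glycolysis genes 1 rose (4.35%) and 2 fell (8.70%), against 2.46% and 1.53% of all tested genes. Hexokinase 2 (Hk2) fell from 237, 201 and 267 to 86.2, 92.6 and 82.7 CPM (-1.43 ± 0.27, adjusted p = 0.00145) and Pfkfb3, which encodes an enzyme that raises the activator of phosphofructokinase, from 263, 193 and 241 to 102, 90.5 and 88.2 CPM (-1.31 ± 0.31, adjusted p = 0.012). Both had risen on the first LPS (4.74 ± 0.31 and 3.81 ± 0.35), and Pfkfb3 was no longer called without culture 3 of both groups. The phosphofructokinase gene Pfkp rose from 21.5-31.8 to 36.4-108 CPM (1.29 ± 0.32, adjusted p = 0.0161), a call kept in 3 of the 6 fits that left out a library. The other 20 of 23 tested members did not pass (list median -0.19), nor did any of 21 tricarboxylic acid cycle enzymes (median 0.11). With 3.99% of all tested genes called, 21 genes would hold few calls in any case.

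Cdkn1a, the gene of the cell cycle inhibitor p21, was at 2361, 3374 and 5513 CPM before and at 767, 984 and 850.4 CPM after restimulation (-2.11 ± 0.38, adjusted p = 0.000679), and the proliferation marker Mki67 rose from 4.26, 7.78 and 12.8 to 19.0, 21.0 and 61.0 CPM (2.02 ± 0.55, adjusted p = 0.0292). They were the only calls of 28 cell cycle genes, 3.57% in each direction, near the 2.46% higher and 1.53% lower of all tested genes. The list median was -0.55, or -0.39 with the genes at the floor of 3 counts set at their bound. The call of Mki67 was kept in 3 of the 6 fits that left out a library. Stress and growth lists gave 1 call each, a share near the 3.99% of all tested genes. Sesn2, a stress-induced inhibitor of mTORC1 signalling, was called lower (-3.67 ± 0.91, adjusted p = 0.0152) with 38.5 CPM in the 24h_LPS library of culture 3 against 5.72 and 7.06, the heat shock gene Hspa1b rose (1.78 ± 0.47, adjusted p = 0.0247) and the ribosome assembly gene Rrs1 rose (1.76 ± 0.38, adjusted p = 0.00505). These were 1 of 24 integrated stress response genes, 1 of 24 chaperones and 1 of 40 ribosome biogenesis genes, and none of the 3 was kept without culture 3 of both groups. Hspa1b has a near-identical copy, Hspa1a, and the split of reads between them is uncertain.

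In the lysosome list 2 of 32 genes passed, 1 in each direction (3.13% each, near the 2.46% and 1.53% of all tested genes), both with overlapping groups. Cathepsin S (Ctss) was called higher with 20950.3 CPM in the restimulated library of culture 3 against 4232 and 6433 in the others (1.44 ± 0.38, adjusted p = 0.0266), and Lamp2 lower with 4909 CPM in the 24h_LPS library of culture 3 against 931 and 1573 (-1.59 ± 0.46, adjusted p = 0.0429). Neither was called without that culture.

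Among all genes, the largest rises with separate groups included several outside the lists. Gem, which encodes a small GTP-binding protein that restrains calcium channels, rose from 0.243, 1.43 and 0.382 to 14.2, 31.9 and 66.6 CPM (5.70 ± 0.70, adjusted p = 5.88e-06), Epha4, an ephrin receptor gene, from 2.01-4.99 to 30.4-63.5 CPM (3.96 ± 0.51, adjusted p = 7.67e-06) and Kcna3, the gene of the potassium channel Kv1.3, from 5.92-30.1 to 143-286 CPM (3.76 ± 0.46, adjusted p = 3.18e-06). The interferon-induced family member Ifitm7 rose from 0.191-0.852 to 5.46-12.8 CPM (3.93 ± 0.65, adjusted p = 0.000275) and Shisa3 from at most 1.10 CPM to 3.70-5.73 CPM (3.63 ± 0.60, adjusted p = 0.000324). All 5 calls held in every fit that left out a library. Id3, which encodes an inhibitor of basic helix-loop-helix factors, rose from 6.33, 5.09 and 0.669 to 78.4, 88.5 and 61.3 CPM (4.25 ± 0.45, adjusted p = 3.21e-07).

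The largest falls were mostly of low genes. Zfp395 went from 4.26, 7.42 and 19.3 to 1.73, 0.585 and 0.485 CPM (-3.50 ± 0.61, adjusted p = 0.000392) and Rab27a, a GTPase gene of granule secretion, from 2.92, 4.56 and 4.20 to 0.576, 0 and 0.323 CPM (-3.69 ± 0.81, adjusted p = 0.00591). BC147527 was at 2.41-6.40 CPM before restimulation and at the floor of 3 counts per library afterwards, which makes it at least 14.6-fold lower. Slit2 and Susd6 were led by the 24h_LPS library of culture 3, with 47.7 CPM against 2.19 and 0.804, and 547 against 94.1 and 127, and neither call was kept without it.

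The first and second responses were then set side by side. The first LPS raised 1874 genes (15.8%) and lowered 1931 (16.3%), in libraries that the second response does not share. The 3 unstimulated libraries all carried prefix 4, whereas the 3 h libraries carried prefixes 1, 2 and 4. Treatment and prefix are therefore partly confounded in the first response and in its difference from the second. Of the 1874, 213 rose again on the second LPS, 30 fell and 1631 did not pass. Of the 292 genes higher after restimulation, 213 (72.9%) had also risen on the first LPS, which is 11.4% of the 1874. Of the 182 lower genes, 81 (44.5%) had also fallen on the first LPS, which is 4.19% of the 1931, and 30 had risen. The difference between the responses, tested as 1 contrast, passed for 1960 genes (16.5%), of which the second response was the lower in 1202 (10.1%) and the higher in 758 (6.38%).

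Levels were also set against those of the first 3 h, as a description without a test between lists. The genes were taken for being raised at 3 h, and the values after restimulation include what was still present at 24 h. Over the 1874 genes raised by the first LPS, the median mean level was 41.8% of the 3 h level after 24 h and 49.1% after restimulation. Among the cytokines raised by the first LPS this share went from 3.18% to 18.1%, and in the NF-kappaB family from 22.1% to 46.8%. Type I interferon targets stood at 49.7% at 24 h and 39.8% after restimulation, and guanylate-binding proteins and related GTPases at 19.1% and 18.5%. The second response was smaller than the first for 33 of 34 type I interferon targets, 13 of 14 GTPases, 19 of 30 cytokines, 18 of 22 chemokines and 9 of 11 NF-kappaB genes.

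Single genes showed the range. The difference between second and first response was -9.51 ± 0.56 for Rsad2 (adjusted p = 7.97e-14), -9.75 ± 0.69 for Ccl5 (adjusted p = 2.32e-12) and -6.77 ± 0.48 for Gbp2 (adjusted p = 3.11e-12). It was -7.78 ± 0.48 for Il1b (adjusted p = 1.78e-13), -5.99 ± 0.52 for Tnf (adjusted p = 2.29e-10) and -3.45 ± 0.39 for Nfkbia (adjusted p = 4.2e-08). The 2 responses started from different levels: the 24h_LPS mean of Il1b, 346 ± 156 CPM, was above the 5.03 ± 0.639 CPM of unstimulated cultures (SD, n = 3 each). For Mt1 the second response nearly equalled the first, with a difference of 0.18 ± 0.47 (adjusted p = 0.859) and a restimulated mean of 99.7% of the 3 h mean. For Gem it was -0.74 ± 0.96 (adjusted p = 0.684). Such intervals do not show that the responses were equal.

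**Figure D4:**
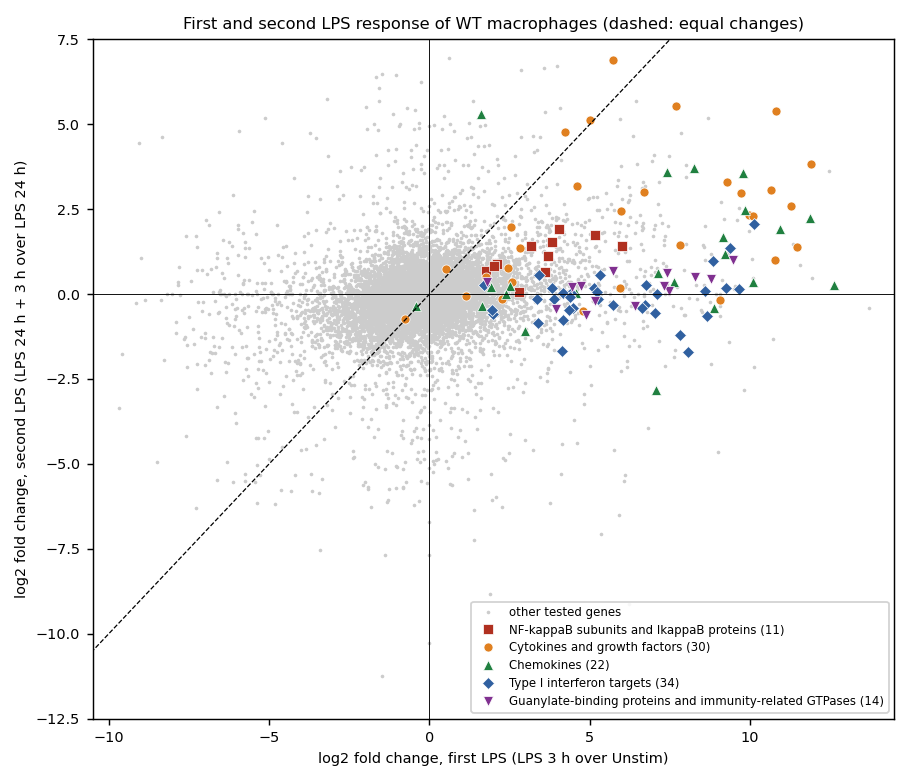
Log2 fold change of the first LPS response (LPS 3 h over Unstim, x axis) and of the second (24h_LPS/3h_LPS over 24h_LPS, y axis) of WT macrophages for 11878 tested genes, with the members of 5 lists coloured; the dashed line marks equal changes. Type I interferon targets lie near 0 on the y axis (median -0.12) with a first response median of 5.24, and cytokines lie higher (median 2.15).

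A group of 38 genes rose on the second LPS, had not risen on the first, and differed between the responses. Since the second response is a part of that difference, this count is a description. At 24 h of LPS 33 of them were below their unstimulated mean, and 6 had overlapping groups in the restimulation comparison. Id3 was at 49.2 ± 4.88 CPM unstimulated, 63.4 ± 12.7 after 3 h, 4.03 ± 2.98 after 24 h and 76.1 ± 13.7 after restimulation (SD, n = 3 each), and the difference between its responses was 3.88 ± 0.58 (adjusted p = 7.3e-06). Tmod1, the gene of the actin-capping protein tropomodulin 1, was at 6.25, 2.98, 0.956 and 14.97 CPM in the same order (difference 4.99 ± 1.03, adjusted p = 0.000623). The next 4 genes, like the group, were singled out after their values were seen.

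Igf1, the gene of insulin-like growth factor 1, had mean levels of 1699, 1162, 273 and 601 CPM (difference 1.69 ± 0.37, adjusted p = 0.00144). Il7r, the interleukin 7 receptor gene, was at 558, 264, 257 and 604 CPM (difference 2.31 ± 0.41, adjusted p = 0.000107) and Fabp5, a fatty acid-binding protein gene, at 1459, 1018, 821 and 2826 CPM (difference 2.30 ± 0.56, adjusted p = 0.0033). Apex1, which encodes a DNA repair endonuclease, was at 37.3, 22.0, 13.7 and 53.9 CPM (difference 2.74 ± 0.73, adjusted p = 0.00837). In the restimulation comparison, Fabp5, Il7r, Igf1 and Tmod1 were no longer called without culture 3 of both groups, and Apex1 was called in 3 of the 6 fits that left out a library and not with the prefix as a term.

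**Figure D5:**
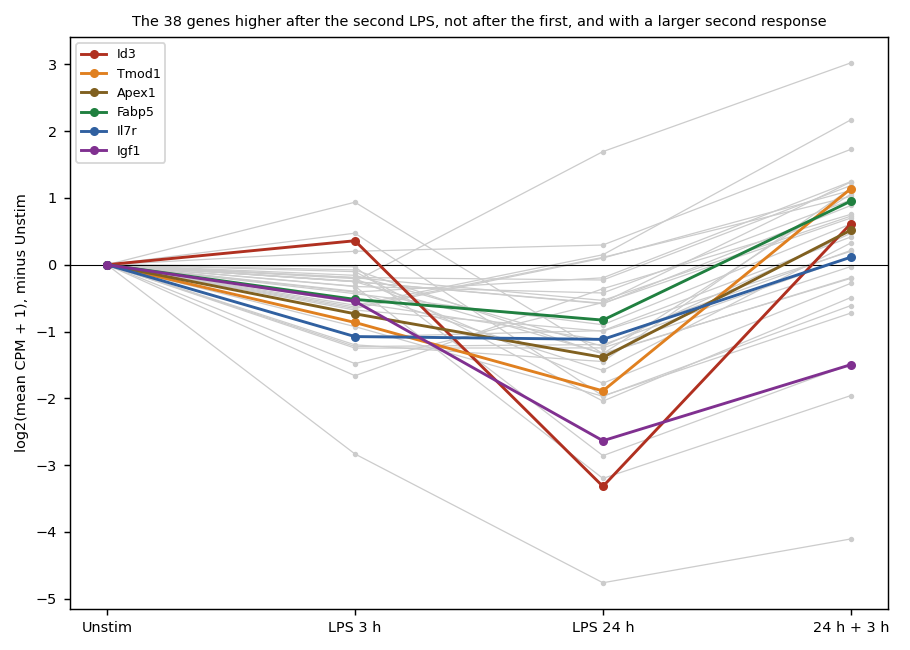
Mean level of 38 genes in WT macrophages as log2(mean CPM + 1) minus the unstimulated value (y axis) in 4 treatments (x axis); coloured lines are 6 named genes and grey lines the others. Id3 drops from 49.2 to 4.03 CPM by 24 h and stands at 76.1 CPM after restimulation.

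Another set moved against the first response. A group of 30 genes rose on the first LPS and fell on the second, which fixes the sign of the difference between their responses, so that the differences given here are a description. In Cdkn1a the 3 h mean was 11226 ± 4991 CPM and the restimulated mean 867 ± 109 CPM (difference -7.12 ± 0.57, adjusted p = 3.8e-11), and in Hk2 925 ± 135 and 87.2 ± 5.01 CPM (difference -6.17 ± 0.41, adjusted p = 6.82e-13). Irf8 behaved alike (difference -3.53 ± 0.43, adjusted p = 1.65e-07). Slc40a1 fell on both occasions and fell less on the second (difference 3.18 ± 0.40, adjusted p = 3.75e-07). Lhx2, a homeobox gene, had 148 ± 24.0 CPM after the first LPS, no count in unstimulated cultures and 3.31-11.2 CPM in the 6 libraries compared here (difference -14.12 ± 0.98, adjusted p = 4.47e-12, a fitted value that depends on the prior count).

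In Irg1-/- cultures 409 genes rose and 202 fell on restimulation (3.44% and 1.70%, together 5.14%). The 24h_LPS libraries of this genotype all carried prefix 1, and the restimulated libraries of cultures 1 to 3 carried prefixes 2, 1 and 1. Of the 292 genes higher in WT, 174 (59.6%, or 42.5% of the 409) were higher in Irg1-/- as well, and 259 had the same sign. Of the 182 lower genes, 52 (28.6%, or 25.7% of the 202) were lower in Irg1-/-. The test of the difference between genotypes in this response passed for 1 gene (0.00842%), Plagl2, and an unadjusted p under 0.05 was found for 1029 of 11878 genes. Tnf rose by 4.62 ± 0.39 in Irg1-/- and by 3.30 ± 0.37 in WT, Nlrp3 by 3.58 ± 0.45 and 3.13 ± 0.44, Mt2 by 3.82 ± 0.46 and 4.09 ± 0.46, and Id3 by 4.59 ± 0.45 and 4.25 ± 0.45, and none of these differences passed.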

How the data were processed

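mRNA of BMDMs was primed with barcoded oligo-dT, pooled and amplified by 12 cycles of PCR, so that counts reflect the 3' ends of transcripts, without molecular identifiers. Per the submitters' processing notes, STAR and mm10 were used, and the authors deposited whole-number counts per gene without normalization; the counting program, annotation and use of strand are not given in the sources used here. Groups and culture numbers were taken from the sample labels, and cultures are described as independent; p-values measure the spread between these cultures. The 22165 genes of the table were used and its 5 summary lines left out, so that 49.0-58.0% of the reads of the 6 libraries entered.

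Normalization used TMM factors, and genes were kept by filterByExpr in edgeR 4.0.16 (R 4.3.3). Contrasts were tested by glmQLFit and glmQLFTest over all 24 libraries in 8 groups, which share 1 estimate of the spread, with Benjamini-Hochberg adjustment over 11878 genes and a threshold of 0.05. Standard errors are the log2 fold change divided by the square root of F. Levels are TMM-normalized CPM, and errors of means are SD. A group with at most 3 counts in each library was treated as at the floor, and the bound this gives covers counting error only, whereas SE and SD include the spread between cultures. Gene names came from the annotation tables for 21745 genes. Promoters were taken from RefSeq (GRCm38.p6). The model was tested on simulated data.

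The comparison, its 29 lists and the marker lists were chosen with earlier results of these data known. Named were, per list, up to 4 called members with the largest changes and up to 2 of the most abundant members not called, of which some are given, then genes among the 15 highest and 15 lowest changes with separate groups whose higher side averaged 10 counts or more, up to 6 genes per direction for each difference of responses, and Acod1, Il1b and Tnf. Alternatives were DESeq2 1.42.0, its size factors, TMM without the 20 most abundant genes, other filters, fits of the compared groups only, replicate and prefix terms, and each library left out. Library prefixes of the column names are not described in the labels. Some genes that the rule would name are not reported here.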

Additional observations from a re-analysis of the deposited data

Results flagged for a closer look

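Results were singled out where 2 responses differed in a test of the difference itself. Between the second and the first LPS response of WT macrophages this held for 1960 genes. Other named genes passed as well and are not listed. Among those chosen for this comparison, the second response was the lower for Lhx2 (-14.12 on the log2 scale), Acod1 (-9.88), Ccl5 (-9.75), Rsad2 (-9.51), Tnfsf15 (-8.07), Il1b (-7.78), Cdkn1a (-7.12), Gbp2 (-6.77), Hk2 (-6.17), Tnf (-5.99), Irf8 (-3.53) and Nfkbia (-3.45). It was the higher for Tmod1 (4.99), Id3 (3.88), Slc40a1 (3.18), Apex1 (2.74), Il7r (2.31), Fabp5 (2.30), Igf1 (1.69) and Dusp4 (1.34).

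Between Irg1-/- and WT in the response to the second LPS 1 gene passed, Plagl2, which encodes a zinc finger transcription factor (difference 2.98, adjusted p = 0.0491, edgeR's quasi-likelihood test). In WT it was at 262, 393 and 1080.2 CPM before and at 193, 205 and 276 CPM after restimulation, so that the groups overlapped and the value rested on the 24h_LPS library of culture 3. Without that library no gene passed.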

How the results depend on the processing

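Genes higher after restimulation numbered 292, and 440 with DESeq2, 99 with only the groups compared, 142 without culture 3 of both groups and 144 to 272 with 1 library left out. Genes lower numbered 182, and 326 with DESeq2, 329 without a filter, 47 with only the groups compared, 101 with those groups and the replicate block, 39 without culture 3 of both groups and 58 to 254 with 1 library left out. The 1960 genes that differ between the second and first response kept their number within 1.5 times under every alternative run, 1 library left out included. Genes that differ between genotypes numbered 1, and 55 with DESeq2, 170 without a filter, 7 with the prefix as a term, 2 with the compared groups and the replicate block, 0 with size factors, TMM without the top 20 genes, the filter at 10 mean counts, the compared groups alone or the replicate block, and 0 to 23 with 1 library left out. The causes were not tested.

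Same-numbered cultures of the compared groups correlated in their deviations by 0.084, 0.062 and 0.264, not every culture correlated best with its own number, and the labels do not say that numbers pair the samples. With the replicate block 277 genes were higher and 159 lower, and the calls of Jund, Ctss, Lamp2, Plagl2 and Apex1 were lost. With the prefix as a term those of Jund, Ctss, Lamp2, Fcrls and Apex1 were lost. Of 82 called values of named genes, 31 kept their side of the threshold in all 10 alternatives and 46 in all fits that left out a library. Signs turned for Rsad2 (-0.15 without 24h_LPS culture 1, -0.52 without the restimulated culture 3 and -0.14 without culture 3 of both groups), Ccl5 (-0.050 without 24h_LPS culture 3) and, in the difference of responses, Mt1 (-0.10 without 24h_LPS culture 3 and -0.03 without the restimulated culture 2) and Gem (0.40 without 24h_LPS culture 2). With 1 library left out the range was -0.52 to 0.54 for Rsad2, -0.050 to 0.86 for Ccl5, -0.10 to 0.48 for Mt1 and -3.70 to 0.40 for Gem.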
